A study of Mus musculus with 12 samples.

Results

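The cholesterol synthesis enzymes described here are Hmgcs1, Idi1, Fdps, Fdft1, Sqle, Lss, Cyp51, Msmo1 and Dhcr7, which catalyze steps from the entry of the mevalonate pathway to the last reduction that gives cholesterol. They were chosen as named enzymes of the pathway, and all probe sets that the array's annotation lists with exactly 1 of these symbols were taken. This gave 23 probe sets of 9 genes, among 45037 tested probe sets and 18193 genes with a probe set. Gene expression was measured on Affymetrix arrays in the ventral tegmental area (VTA), where many of the dopaminergic neurons of the midbrain lie, of C57 wild type mice (C57BL/6 in the study's methods) aged 2 months (young), 10 months (middle aged) and 18 months (late-middle aged). No mouse was treated, and the ages differed in nothing else that the labels give. There were 4 arrays per age, each of RNA pooled from 5 mice, so errors describe variation among pools, and variation among individual mice was not measured. The whole region was dissected by hand, so a signal is that of all its cell types together, and fewer cells of a type cannot be told apart from less RNA per cell. Each probe set has a log2 expression value in every array.

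Young arrays 3 and 4 were close to identical, with a correlation of 0.998 (0.967 to 0.996 for the remaining 17 pairs of arrays of 1 age). At the member probe sets they differed by a median of 0.0683 on the log2 scale, and the remaining pairs by 0.114 to 0.421. Since this is less than replicates otherwise differed, they were counted as 1 sample. This left 3 samples at 2 months (array 1, array 2 and the mean of arrays 3 and 4, the order in which young values are given below), 4 at 10 months and 4 at 18 months. The dopaminergic markers of the labelled tissue were strongly expressed, with Th (tyrosine hydroxylase) at a mean log2 value of 13.84 and Slc6a3 (the dopamine transporter) at 14.12 at 18 months.

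Cells make cholesterol from acetyl-CoA. HMG-CoA is formed and reduced to mevalonate, mevalonate is turned into 5-carbon isoprenoid units, these are joined to squalene, and squalene is closed to lanosterol, which is trimmed and reduced to cholesterol. The genes are known as targets of SREBP-2, a transcription factor that is released from the endoplasmic reticulum when membrane sterol is low and held there by INSIG proteins when it is high. Because lipoproteins of the blood do not cross into the brain, brain cholesterol is made locally, largely by oligodendrocytes during myelination and by astrocytes later on.

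SREBP-2 is known to act at sterol regulatory elements, usually with the factor NF-Y at CCAAT boxes nearby. RefSeq promoter windows (GRCm38.p6, 250 bases before to 50 after the start) were matched by symbol for 6 of the 9 genes. Those of Hmgcs1, Idi1 and Msmo1 are printed because each of these genes had a probe set that passed the test described below and a single start in the table. Capitals mark CACCCCAC, a core of the sterol regulatory element, and CCAAT, both searched on either strand (GTGGGGTG and ATTGG). The windows lie at chr13:119690101-119690400 on the plus strand (Hmgcs1), chr13:8885356-8885655 on the plus strand (Idi1) and chr8:64733529-64733828 on the minus strand (Msmo1), and each is written in the direction of its gene.
Hmgcs1: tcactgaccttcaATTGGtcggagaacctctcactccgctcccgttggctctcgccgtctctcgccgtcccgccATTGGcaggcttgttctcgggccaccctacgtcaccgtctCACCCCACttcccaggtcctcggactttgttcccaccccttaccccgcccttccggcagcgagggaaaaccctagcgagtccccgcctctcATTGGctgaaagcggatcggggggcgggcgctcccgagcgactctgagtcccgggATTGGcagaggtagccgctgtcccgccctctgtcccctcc
Idi1: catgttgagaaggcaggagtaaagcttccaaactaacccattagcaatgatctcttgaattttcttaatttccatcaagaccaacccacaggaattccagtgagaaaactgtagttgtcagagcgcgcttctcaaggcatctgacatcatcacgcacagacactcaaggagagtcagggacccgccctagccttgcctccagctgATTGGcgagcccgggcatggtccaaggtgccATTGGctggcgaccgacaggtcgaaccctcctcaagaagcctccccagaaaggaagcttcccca
Msmo1: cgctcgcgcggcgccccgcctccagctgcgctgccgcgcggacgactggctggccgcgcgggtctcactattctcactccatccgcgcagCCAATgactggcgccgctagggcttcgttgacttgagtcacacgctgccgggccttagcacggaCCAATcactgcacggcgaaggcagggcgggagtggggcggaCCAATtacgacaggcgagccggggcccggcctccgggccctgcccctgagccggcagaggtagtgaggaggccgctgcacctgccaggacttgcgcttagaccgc
The 6 genes had 8 windows, of which 3 belong to Dhcr7. The sterol element core was found in 1 of the 8, 136 bases before the Hmgcs1 start, and in 2.87% of the 32851 promoter windows of this length in the table. CCAAT was found in 6 of the 8 (1 window of each gene), against 37.4% of all windows, with 4 copies at Hmgcs1, 2 at Idi1 and 3 at Msmo1. The motifs do not overlap in these windows, and a match is a run of letters and not a measured site.

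Between 18 and 2 months the enzymes moved in both directions. Fdps and Msmo1 were higher at 18 months by 2.30-fold and 2.00-fold, and Hmgcs1, Idi1 and Dhcr7 were lower by 1.31-fold, 1.56-fold and 1.65-fold, each at 1 probe set. These were the 5 of 23 probe sets (21.7%) that passed limma's test (adjusted p under 0.05 over all probe sets, and a change above 1.3-fold), against 7.46% of all tested probe sets. Of the 23, 2 rose, against 4.55% of all tested probe sets, and 3 fell, against 2.91%. An unadjusted p under 0.05 was found for 11 of 23 (47.8%) and for 23.6% of all. The samples of the 2 ages did not overlap at 10 of the 23 (43.5%), with 3 higher and 7 lower at 18 months, and they did not overlap at 23.6% of all tested probe sets. The median change of the 23 was −0.12 on the log2 scale, against −0.06 for all probe sets. With each gene at its probe set of the highest mean, 4 of 9 genes passed (44.4%), against 8.82% of the 18193 genes: Fdps and Msmo1 rose, and Hmgcs1 and Dhcr7 fell.

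**Figure D1:**
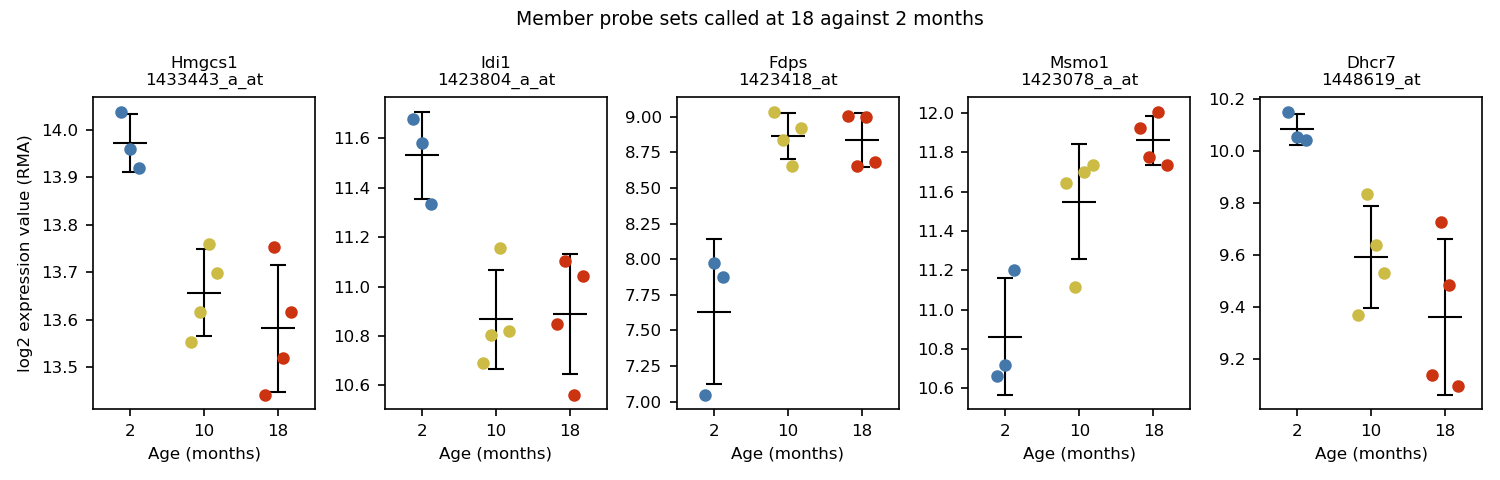
Log2 expression value (y axis) of the 5 member probe sets that passed the test at 18 against 2 months, by age in months (x axis). Each point is a sample, with 3 at 2 months, 4 at 10 months and 4 at 18 months, bars are mean ± SD, and each y axis covers its own range and does not start at 0. In all 5 panels the samples at 18 months lie apart from those at 2 months, for instance from 8.66 to 9.01 against 7.05 to 7.97 for Fdps.

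Between 10 and 2 months 1 of the 23 passed, Fdps, which was higher (4.35%, against 1.36% of all tested probe sets, of which 0.837% were higher and 0.524% lower). The samples did not overlap at 4 of the 23, 1 higher and 3 lower at 10 months (17.4%, against 12.6% of all). Between 18 and 10 months limma called 0 of the 23, against 0.00222% of all probe sets, with 3 of the 23 (13%) at an unadjusted p under 0.05, against 5.06% of all. No member had separate samples at these ages, against 2.73% of all probe sets. The contrast of the change from 2 to 10 months with that from 10 to 18 months called 0 of the 23 and 0% of all probe sets by limma's adjusted p, with 3 of the 23 (13%) at an unadjusted p under 0.05, against 5.47% of all. Both comparisons with 2 months use the young samples, so their values are given side by side and are not independent.

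**Figure D2:**
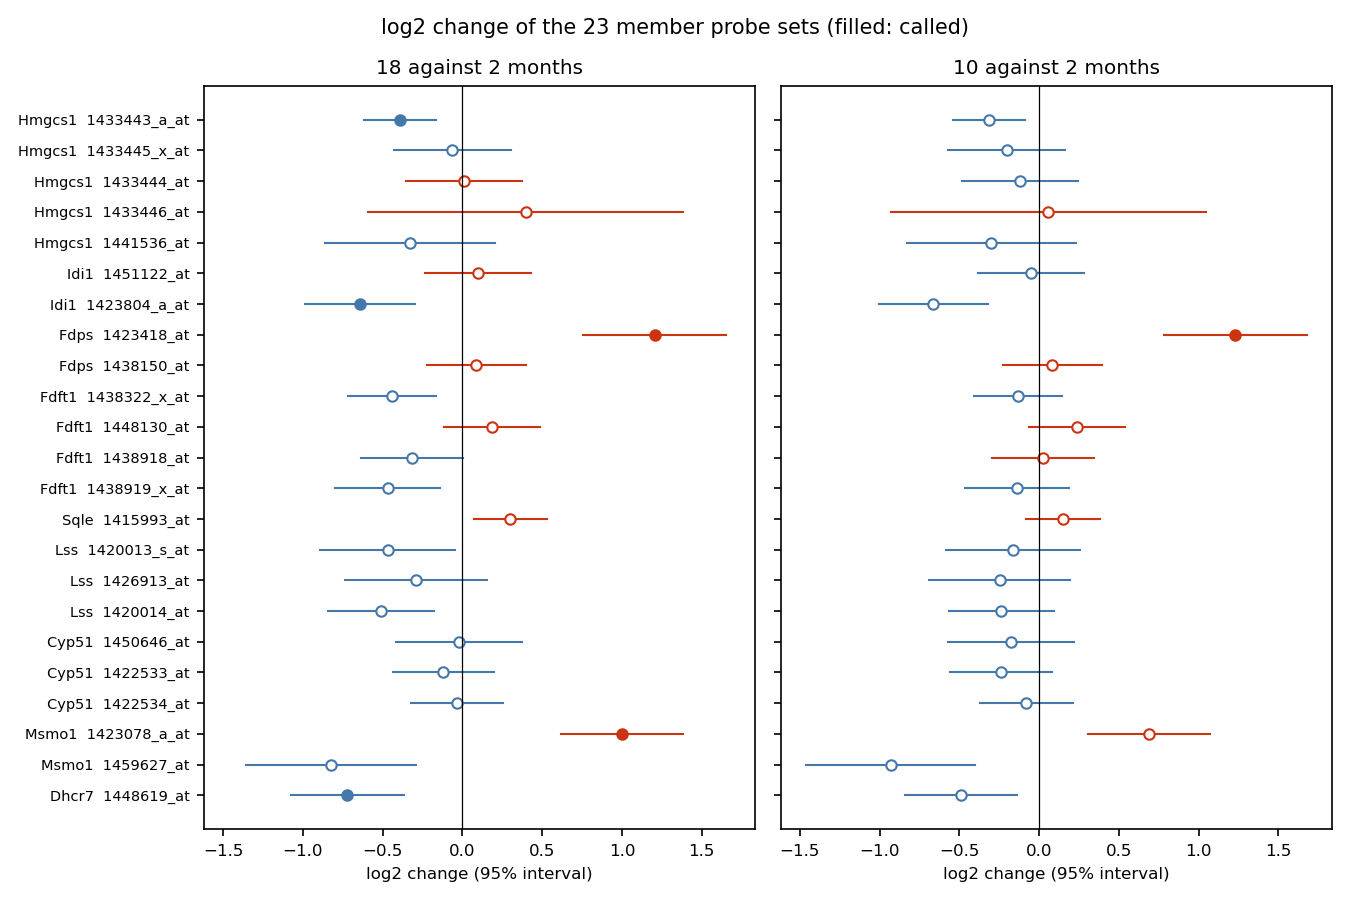
Change on the log2 scale (x axis) of each of the 23 member probe sets (rows, in pathway order) at 18 against 2 months (left) and at 10 against 2 months (right), with 95% intervals from limma. Red is higher and blue lower at the older age, and filled points passed the test, which were 5 at the left and 1 at the right.

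Measures of the arrays moved with the same ages. The mean log2 signal of the poly-A control probe sets overlapped between no ages. It was at most 6.26 at 2 months, 6.37 to 6.56 at 10 months and 6.73 to 7.52 at 18 months. Array medians were 6.115 to 6.149 at 18 months and 6.115 to 6.171 at 10 months, all below the 6.175 to 6.211 at 2 months. The part of the poly-A signal in the enzyme values was not tested. The signal at the 3′ end minus that at the 5′ end of the Actb and Gapdh control probe sets, which is larger where labelled RNA is shorter, was 1.98 ± 0.24 on the log2 scale at 18 months (1.64 to 2.17, SD, n = 4) and 2.15 ± 0.34 at 10 months (1.69 to 2.44, SD, n = 4), against 3.47 ± 0.17 at 2 months (3.29 to 3.63, SD, n = 3). Both older ages lay wholly below the young samples, so this 3′ minus 5′ measure and young age cannot be told apart. With the 3′ minus 5′ measure as a covariate limma called 0 of the 23 member probe sets and 0 of all 45037 at 18 against 2 months. The changes of the 5 that had passed were then 0.50 ± 0.54 (SE) for Fdps and 0.50 ± 0.48 for Msmo1. They were −0.30 ± 0.44 for Dhcr7, −0.18 ± 0.29 for Hmgcs1 and −0.16 ± 0.42 for Idi1. Each had a limma adjusted p of 1, and at these errors the signs are undetermined.

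Hmgcs1, the cytosolic HMG-CoA synthase that forms HMG-CoA at the entry of the pathway, had 5 probe sets. At the one with the highest mean, 1433443_a_at, the log2 values were 13.44, 13.75, 13.52 and 13.62 at 18 months and 13.55, 13.62, 13.76 and 13.70 at 10 months, against 14.04, 13.96 and 13.92 at 2 months. All 8 older samples lay below the young ones, and the 2 older ages overlapped. The change was −0.39 ± 0.10 (SE) at 18 months (limma adjusted p 0.043) and −0.31 ± 0.10 at 10 months (limma adjusted p 0.15). The change at 18 months lies just past the 1.3-fold threshold and was called in 5 of 13 fits that left out arrays (adjusted p 0.0322 to 0.187). These include a fit without young array 3 alone and a fit without young array 4 alone. In each the other array stood for that sample, and the change was called (limma adjusted p 0.046 and 0.043). It was not called without young array 1, young array 2, young arrays 3 and 4 together, 10-month array 1 or 4, or 18-month array 1, 3 or 4, with changes of −0.45 to −0.34 over the 13. The other 3 probe sets above the low level did not pass, at −0.06 (1433445_x_at), 0.01 (1433444_at) and 0.40 (1433446_at, limma 95% interval −0.59 to 1.38). At 10 months these 3 were widely spread, highest in array 3 and lowest in array 2, for instance at 11.37 against 9.12 for 1433446_at. The last, 1441536_at, had a mean below the lowest lower quartile of the arrays (4.48) and a change of −0.33 (limma adjusted p 0.46).

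Idi1, the isomerase that balances the pair of 5-carbon isoprenoid units, had 2 probe sets that differed. At 1423804_a_at the log2 values were 10.85, 11.10, 10.56 and 11.04 at 18 months and 10.69, 10.80, 11.16 and 10.82 at 10 months, against 11.68, 11.58 and 11.33 at 2 months. Every older sample was below every young one. Expression fell by 0.64 ± 0.16 (SE) on the log2 scale at 18 months (limma adjusted p 0.032), and the change at 10 months was −0.66 ± 0.16 (limma adjusted p 0.062). The call at 18 months was lost without young array 1, 2 or 3 and without 18-month array 1 or 3 (changes of −0.74 to −0.53 over 13 fits, adjusted p 0.0151 to 0.162). At 1451122_at, the probe set with the higher mean, the values were 11.52, 11.81, 11.33 and 11.80 at 18 months and 11.35, 11.40, 11.78 and 11.33 at 10 months, against 11.41, 11.68 and 11.46 at 2 months. The ages overlapped there, and the change was 0.10 at 18 months (95% interval −0.23 to 0.43).

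Fdps, which makes farnesyl diphosphate, the last unit shared with the isoprenoids used for protein prenylation and ubiquinone, had the largest rise of the 23 probe sets. At 1423418_at the log2 values were 9.01, 8.66, 9.0 and 8.69 at 18 months and 9.04, 8.83, 8.66 and 8.92 at 10 months, against 7.05, 7.97 and 7.88 at 2 months. The older ages overlapped and lay above the young samples, of which array 1 was the lowest. The rise was 1.20 ± 0.20 (SE) at 18 months (limma adjusted p 0.0085) and 1.23 ± 0.20 at 10 months (limma adjusted p 0.031), and the change between 18 and 10 months was −0.03 (95% interval −0.44 to 0.39). The call at 18 months was kept in all 13 fits that left out arrays (0.91 to 1.37, adjusted p 0.00538 to 0.0315), the lowest being the one without young array 1. That at 10 months was lost in 6 of them, without young array 1 or 2, 10-month array 1 or 4, or 18-month array 2 or 4 (0.94 to 1.40 over the 13, adjusted p 0.0200 to 0.140). Its contrast of the 2 intervals was 1.26 ± 0.34, with a limma adjusted p of 0.90 and an unadjusted limma p of 0.0031. The other Fdps probe set, 1438150_at, was at a mean of 3.06, below the low level, with a change of 0.09.

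Fdft1, squalene synthase, which joins a pair of farnesyl diphosphates in the first step committed to sterols, had 4 probe sets and none passed. At 1438322_x_at the log2 values were 12.51, 12.64, 12.57 and 12.39 at 18 months and 12.86, 13.11, 12.58 and 12.80 at 10 months, against 13.00, 12.88 and 13.03 at 2 months. Samples at 18 months were all below the young ones and overlapped those at 10 months only through array 3 of that age. The change at 18 months was −0.44 ± 0.13 (SE, limma adjusted p 0.056), beside −0.13 at 10 months. Changes of −0.32 (1438918_at, limma adjusted p 0.22) and −0.47 (1438919_x_at, limma adjusted p 0.081) were measured at 2 dimmer probe sets, and 0.18 (1448130_at, limma adjusted p 0.46) at the fourth. The 3 with negative values were the only members with an unadjusted limma p under 0.05 at 18 against 10 months, at −0.31, −0.34 and −0.33 (limma adjusted p 0.85 each). With the 12 arrays kept separate both x_at probe sets passed at 18 against 2 months. An x_at suffix marks probes that may also bind related sequences.

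Sqle, squalene monooxygenase, which adds the oxygen that later becomes the sterol hydroxyl group and is known as a rate-controlling step, had 1 probe set, 1415993_at. Its log2 values were 11.69, 11.66, 11.63 and 11.56 at 18 months and 11.57, 11.34, 11.51 and 11.50 at 10 months, against 11.14, 11.40 and 11.45 at 2 months. Samples at 18 months were all above the young ones, with those at 10 months between and overlapping both. The change was 0.30 ± 0.11 (SE) at 18 months (limma adjusted p 0.11) and 0.15 at 10 months (limma adjusted p 0.56), and neither passed.

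Lss, lanosterol synthase, which closes the rings, had 3 probe sets with negative changes at both older ages, none of which passed. At 1420013_s_at the log2 values were 8.75, 9.15, 8.88 and 9.28 at 18 months and 9.19, 9.30, 9.75 and 9.03 at 10 months, against 9.33, 9.80 and 9.32 at 2 months. The highest sample at 18 months lay just below the lowest young one. The changes at 18 months were −0.47 ± 0.19 here (SE, limma adjusted p 0.17), −0.29 ± 0.20 at 1426913_at (limma adjusted p 0.43) and −0.51 ± 0.15 at 1420014_at (limma adjusted p 0.062). With the probe sets of each gene averaged before the fit, Lss passed at −0.42 ± 0.10 (limma adjusted p 0.025, over 15900 genes). Within ages 1420013_s_at and 1426913_at varied in opposite directions, with a correlation of −0.84 between their deviations from the age means. Averaging cancels such variation, so the smaller SE of the mean does not show that the probe sets agreed. An s_at suffix marks probes shared by several transcripts.

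Cyp51, the demethylase that removes the 14-methyl group of lanosterol, had 3 probe sets with changes near 0. At 1450646_at the log2 values were 10.30, 10.35, 10.11 and 10.29 at 18 months and 10.15, 10.07, 10.49 and 9.73 at 10 months, against 10.12, 10.65 and 10.09 at 2 months. The ages overlapped at all 3 probe sets. At 18 months the changes were −0.02 (1450646_at), −0.12 (1422533_at) and −0.04 (1422534_at), with limma 95% intervals that together ran from −0.44 to 0.37.

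Msmo1, the methyl sterol oxidase that starts the removal of the 4-methyl groups, had 2 probe sets with changes of opposite sign. At 1423078_a_at the log2 values were 11.92, 11.78, 12.01 and 11.73 at 18 months and 11.65, 11.11, 11.70 and 11.74 at 10 months, against 10.66, 10.72 and 11.20 at 2 months. Samples at 18 months were all above the young ones, and at 10 months array 2 lay below the highest young sample. The rise at 18 months was 1.0 ± 0.17 (SE, limma adjusted p 0.0096), and the change at 10 months was 0.69 ± 0.17 (limma adjusted p 0.077). The call was lost in 1 of 13 fits, without young array 1 (0.90, adjusted p 0.067). At 1459627_at the values were 4.56, 4.79, 4.42 and 4.95 at 18 months and 4.55, 4.38, 4.96 and 4.39 at 10 months, against 5.86, 5.80 and 4.84 at 2 months. Young arrays 1 and 2 were high there and the mean of arrays 3 and 4 lay among the older samples, with a change of −0.82 ± 0.24 at 18 months (limma adjusted p 0.063). Averaged over both, Msmo1 had a change of 0.09 (limma adjusted p 0.73).

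Dhcr7, the reductase that turns 7-dehydrocholesterol into cholesterol at the end of the pathway, had 1 probe set, 1448619_at. Its log2 values were 9.14, 9.73, 9.48 and 9.10 at 18 months and 9.37, 9.84, 9.64 and 9.53 at 10 months, against 10.15, 10.06 and 10.04 at 2 months. Every older sample was below every young one, and the older ages overlapped. Expression fell by 0.72 ± 0.16 (SE) on the log2 scale at 18 months (limma adjusted p 0.023), and the change at 10 months was −0.49 ± 0.16 (limma adjusted p 0.15). The call at 18 months was lost without young array 1 or 2 or 18-month array 1 or 4 (−0.84 to −0.63 over 13 fits, adjusted p 0.0174 to 0.119).

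Probe sets of 1 gene did not always move together. Of the 20 pairs of probe sets of 1 enzyme above the low level, 11 had changes of the same sign at 18 against 2 months, beside 101 of the 190 pairs from different enzymes. The spread between the probe sets of a gene was 1.82 on the log2 scale for Msmo1, 0.79 for Hmgcs1, 0.74 for Idi1 and 0.65 for Fdft1, against 0.22 for Lss and 0.10 for Cyp51. When each gene was the mean of its probe sets above the low level, 3 of the 9 passed at 18 against 2 months. Over all genes, 1122 of 15900 passed in the same fit. Fdps was higher and Lss and Dhcr7 lower, while Hmgcs1 (−0.01) and Idi1 (−0.27) did not pass.

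**Figure D3:**
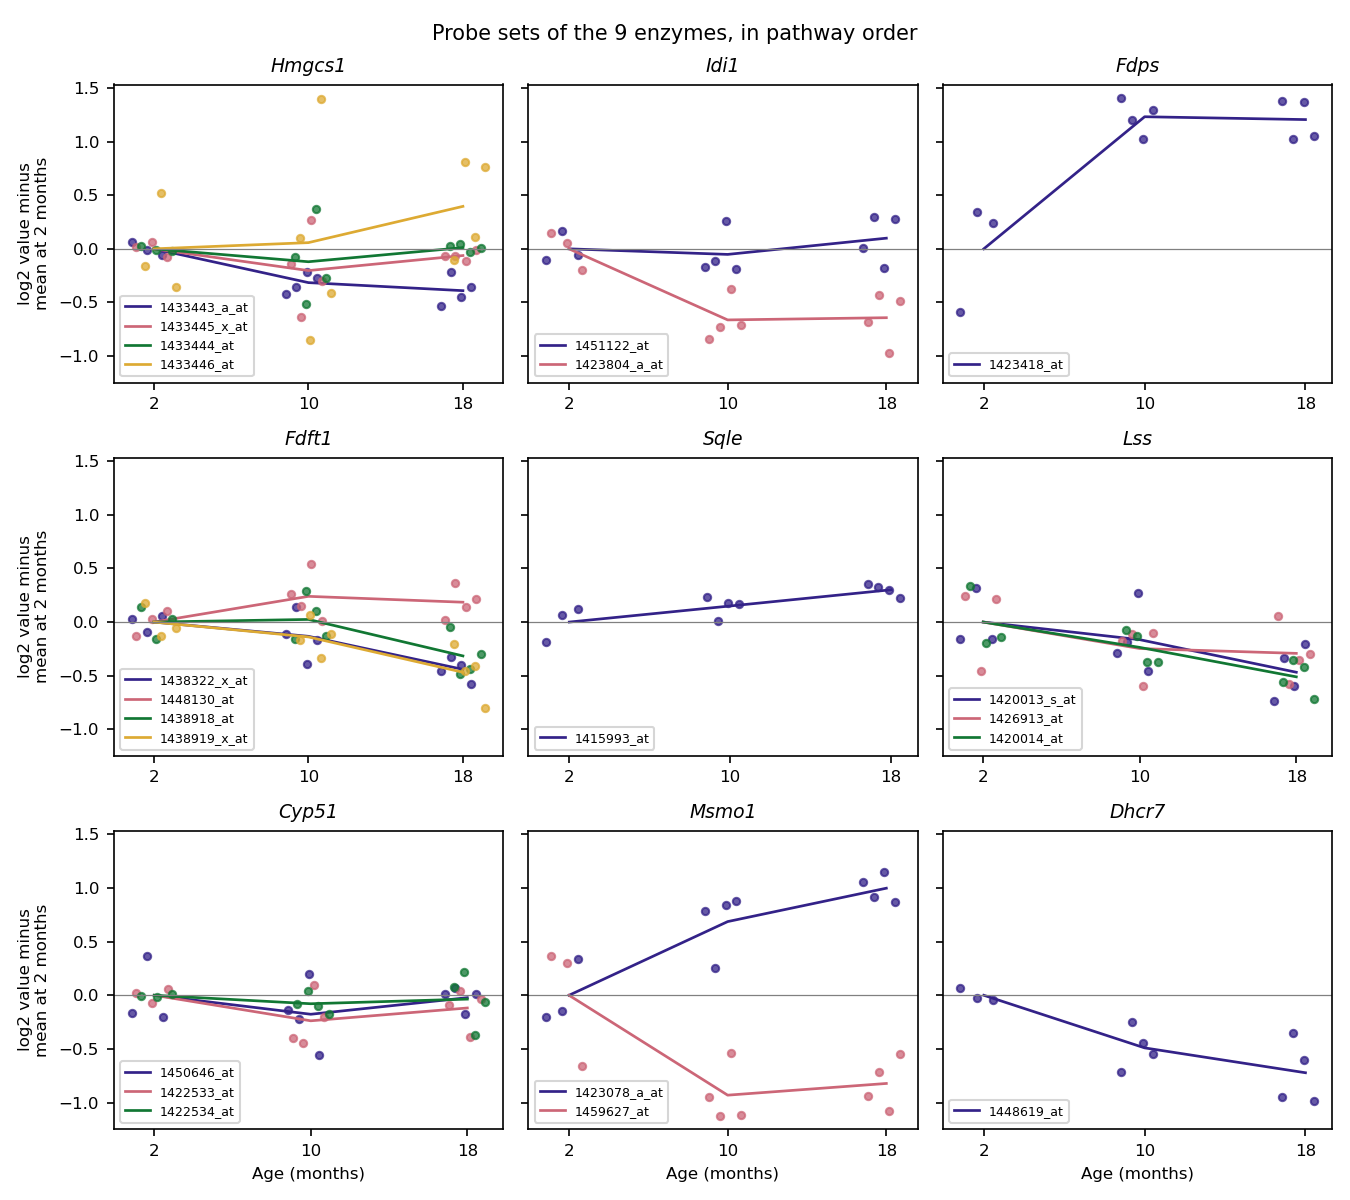
Log2 value minus the mean of the probe set at 2 months (y axis) by age in months (x axis) for each of the 9 enzymes. Points are samples, lines join the age means, and colors are the 21 probe sets above the low level. The age means run in opposite directions for Msmo1 (1.0 and −0.82 at 18 months) and nearly together for Lss and Cyp51.

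Some probe sets of the enzymes also varied together among samples of 1 age, and others did not. As deviations from the age means over the 11 samples, the median correlation was 0.02 over the 190 pairs from different enzymes (−0.88 to 0.89) and 0.33 over the 20 pairs from 1 enzyme (−0.84 to 0.98). Insig1, which encodes a sterol-sensing retention factor and is itself a known SREBP-2 target, was picked for this description after its values were seen. It was at 9.20, 10.68, 8.96 and 10.71 at 18 months and 8.95, 9.17, 10.77 and 8.80 at 10 months, against 10.52, 10.94 and 9.56 at 2 months. Arrays 2 and 4 at 18 months and array 3 at 10 months stood above the others of their age, and the ages overlapped (change at 18 months −0.46 ± 0.56, limma adjusted p 0.68). The correlation of the same deviations with Insig1 was 0.93 and 0.91 for the Idi1 probe sets and 0.56 to 0.84 for the 4 of Hmgcs1 above the low level. Those of Lss differed, at 0.90 (1420013_s_at), −0.18 (1420014_at) and −0.70 (1426913_at), as did those of Msmo1, at 0.82 (1459627_at) and −0.34 (1423078_a_at). Fdft1 ran from −0.59 to 0.66 over its 4 probe sets and Cyp51 from 0.35 to 0.72 over its 3. Fdps 1423418_at was at −0.49, Sqle at −0.18 and Dhcr7 at 0.19. It was above 0.5 for 11 of the 21 probe sets above the low level (52.4%) and for 27.4% of all 35290 such probe sets, and below −0.5 for 3 of 21 (14.3%) and for 35.4% of all. Array 3 was the highest of the 10-month arrays at 11 of the 21 and the lowest at 5, and the share over all probe sets was not counted. This array differed from the others of its age over the whole array. Its correlations with them were 0.967 to 0.984, against 0.991 to 0.996 among those others. Between 2008 and 4905 probe sets differed by more than 1 on the log2 scale, against 85 to 635. The correlated values share their libraries, much of the array varied in the same way, and no test was made.

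**Figure D4:**
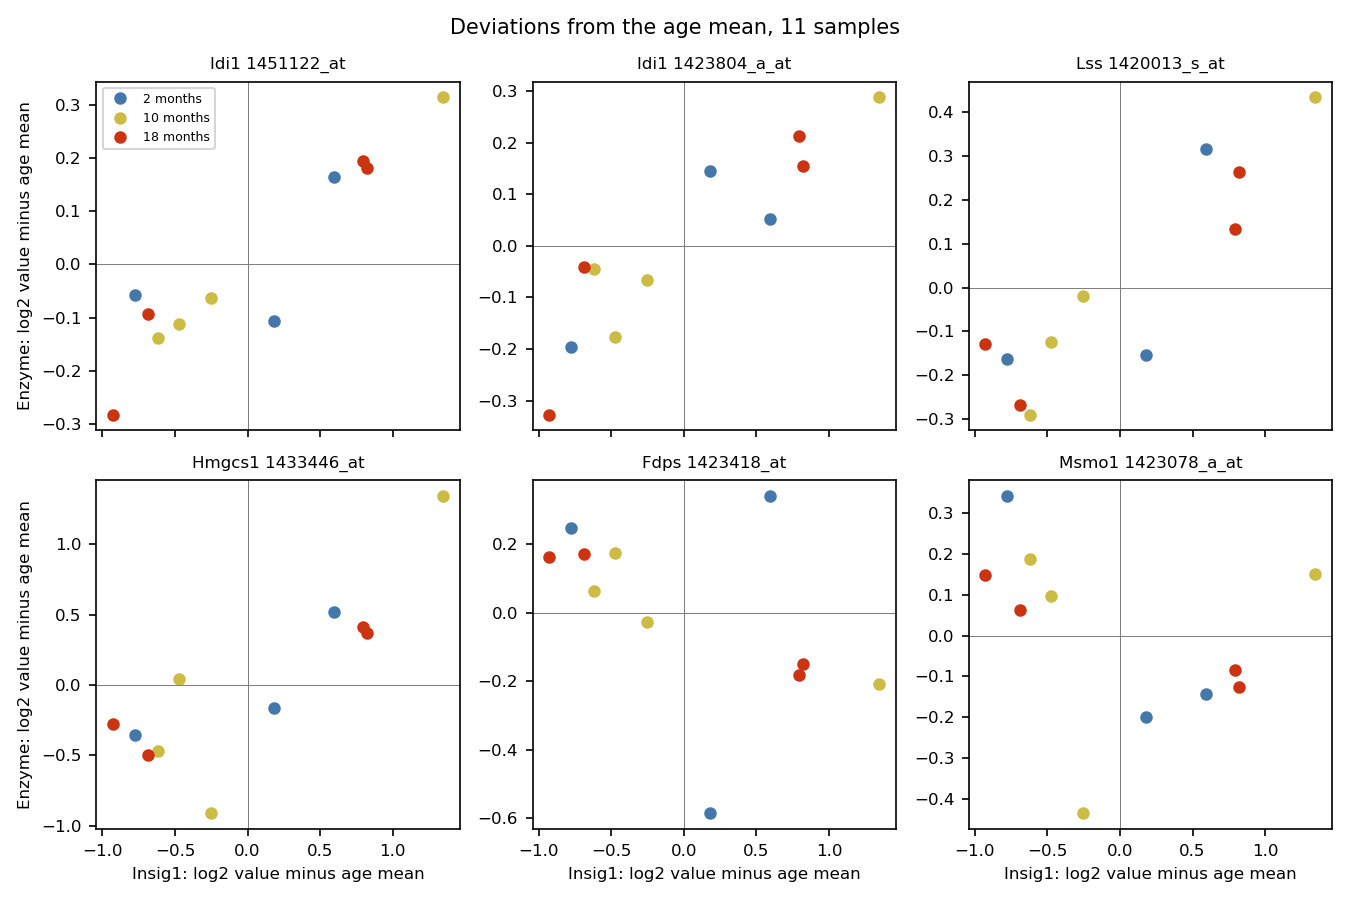
Deviation of each sample from its age mean on the log2 scale, for Insig1 (x axis) and for 6 enzyme probe sets (y axis, each with its own range), colored by age. Shown are the 4 probe sets with the highest correlation to Insig1 (0.84 to 0.93 over 11 samples) and the 2 that rose at 18 months (Fdps −0.49, Msmo1 −0.34), and other probe sets of Lss and Msmo1 ran the opposite way (−0.70 and 0.82).

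Other genes of the pathway were taken from 3 lists of 33 measured genes with 67 probe sets. At 18 against 2 months 4 of the 67 rose and 5 fell, against 4.55% and 2.91% of all tested probe sets. At 10 against 2 months 1 of the 67 rose and none fell, against 0.837% and 0.524% of all, and at 18 against 10 months none passed limma's test. Among 12 other synthesis enzymes (22 probe sets, median change 0.14) 1 probe set fell, that of Mvd, which makes isopentenyl diphosphate just before the Idi1 step. It was at 7.91, 8.09, 8.07 and 8.16 at 18 months, against 8.35, 8.53 and 8.46 at 2 months (1448663_s_at, −0.39 ± 0.09, limma adjusted p 0.032). Its other probe set, 1417303_at, had a change of 0.48 and did not pass.

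Among 10 genes of sterol regulation (18 probe sets, median change 0.09), 1 probe set fell (5.56%, against 2.91% of all tested probe sets). That probe set belongs to Srebf2, which encodes SREBP-2. At 1426744_at its log2 values were 6.16, 6.35, 6.36 and 6.31 at 18 months, against 6.89, 6.81 and 6.98 at 2 months, with no overlap (−0.60 ± 0.10, limma adjusted p 0.0070). At 1452174_at they were 8.56, 8.92, 9.08 and 9.18 at 18 months, against 8.59, 8.65 and 8.80 at 2 months, with overlap and a change of 0.25 ± 0.16 that did not pass (limma adjusted p 0.38).

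Among 11 genes of cholesterol uptake and transport (27 probe sets, median change 0.01), 4 probe sets rose and 3 fell. Together these were 25.9% of the list, against 7.46% of all tested probe sets (4.55% higher and 2.91% lower). Apoe, the main lipoprotein component of the brain, was at 13.78, 13.64, 13.85 and 13.79 at 18 months, against 12.68, 13.15 and 13.22 at 2 months (0.74 ± 0.14, limma adjusted p 0.012), and it was the gene of the lists that also rose at 10 months (0.75, limma adjusted p 0.040). Npc1, which carries cholesterol out of lysosomes, rose by 1.22 ± 0.33 (limma adjusted p 0.047), Abca1, a cholesterol exporter, by 0.55 ± 0.14 at 1421840_at (limma adjusted p 0.036), and Cyp27a1, which hydroxylates cholesterol, by 0.39 ± 0.10 (limma adjusted p 0.045). Dimmer probe sets of Abca1 (0.06 and −0.14) and Cyp27a1 (0.01) did not pass. Scarb1, an HDL receptor, fell by 0.96 ± 0.18 at 1455820_x_at and by 0.91 ± 0.19 at 1437378_x_at (limma adjusted p 0.011 and 0.019), and its remaining probe set had a change of 0.12. Vldlr, a lipoprotein receptor, fell by 1.41 ± 0.36 at 1442169_at (limma adjusted p 0.038). Its probe set 1417900_a_at had a change of opposite sign, 1.22 ± 0.42 (higher at 18 months), that did not pass. The Vldlr probe set with the highest mean, 1434465_x_at, changed by −0.25 (limma adjusted p 0.56). The rest changed by 0.09, −0.24 and −0.06 and did not pass.

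Markers of the cell types that make or hold cholesterol are given beside these values. Each list mean takes every gene at its probe set of the highest mean, while the counts cover all probe sets of the list. The mean log2 level of 9 mature oligodendrocyte markers was 12.23 to 12.27 at 18 months and 12.14 to 12.39 at 10 months, against 12.10 to 12.17 at 2 months, and 2 of its 24 probe sets passed at 18 against 2 months, both higher. That of 6 astrocyte markers was 11.15 to 11.50 at 18 months and 11.03 to 11.33 at 10 months, against 11.04 to 11.09 at 2 months, and none of its 25 probe sets passed limma's test. Microglial markers averaged 8.96 to 9.36 at 18 months and 8.78 to 9.20 at 10 months, against 8.41 to 8.76 at 2 months, with 3 of 9 probe sets higher at 18 months. The mean of 5 general neuron markers was 12.62 to 12.85 at 18 months, against 11.97 to 12.28 at 2 months. Of the 12 neuron probe sets 3 were called higher and 3 lower, with a median change of −0.13. The mean of 6 dopaminergic markers was 12.39 to 12.63 at 18 months, against 12.15 to 12.30 at 2 months. Of the 12 dopaminergic probe sets 1 was called higher and 2 lower, with a median change of −0.08. Choroid plexus markers averaged 5.46 to 5.79 at 18 months, against 5.86 to 6.65 at 2 months, with 0 of 7 probe sets called by limma. The shares called were 8.33% for mature oligodendrocytes, 33.3% for microglia, 50% for neurons and 25% for dopaminergic neurons. Of all tested probe sets 7.46% were called, 4.55% higher and 2.91% lower. None of these 6 list means overlapped between 18 and 2 months, while those of oligodendrocyte precursors and endothelium did, and the part of these shifts in the enzyme values was not tested.

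The genes most like the enzymes over the 11 samples were taken as those with the highest Pearson correlation to the mean of the members' standardized values, each member at its probe set of the highest mean. Over 15715 genes they were Smim10l2a (0.93), Pak1ip1 (0.92), Ehbp1 (0.91), Ccn1 (0.90) and Lig4 (0.90). This mean combines enzymes that rose with enzymes that fell.

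**Figure D5:**
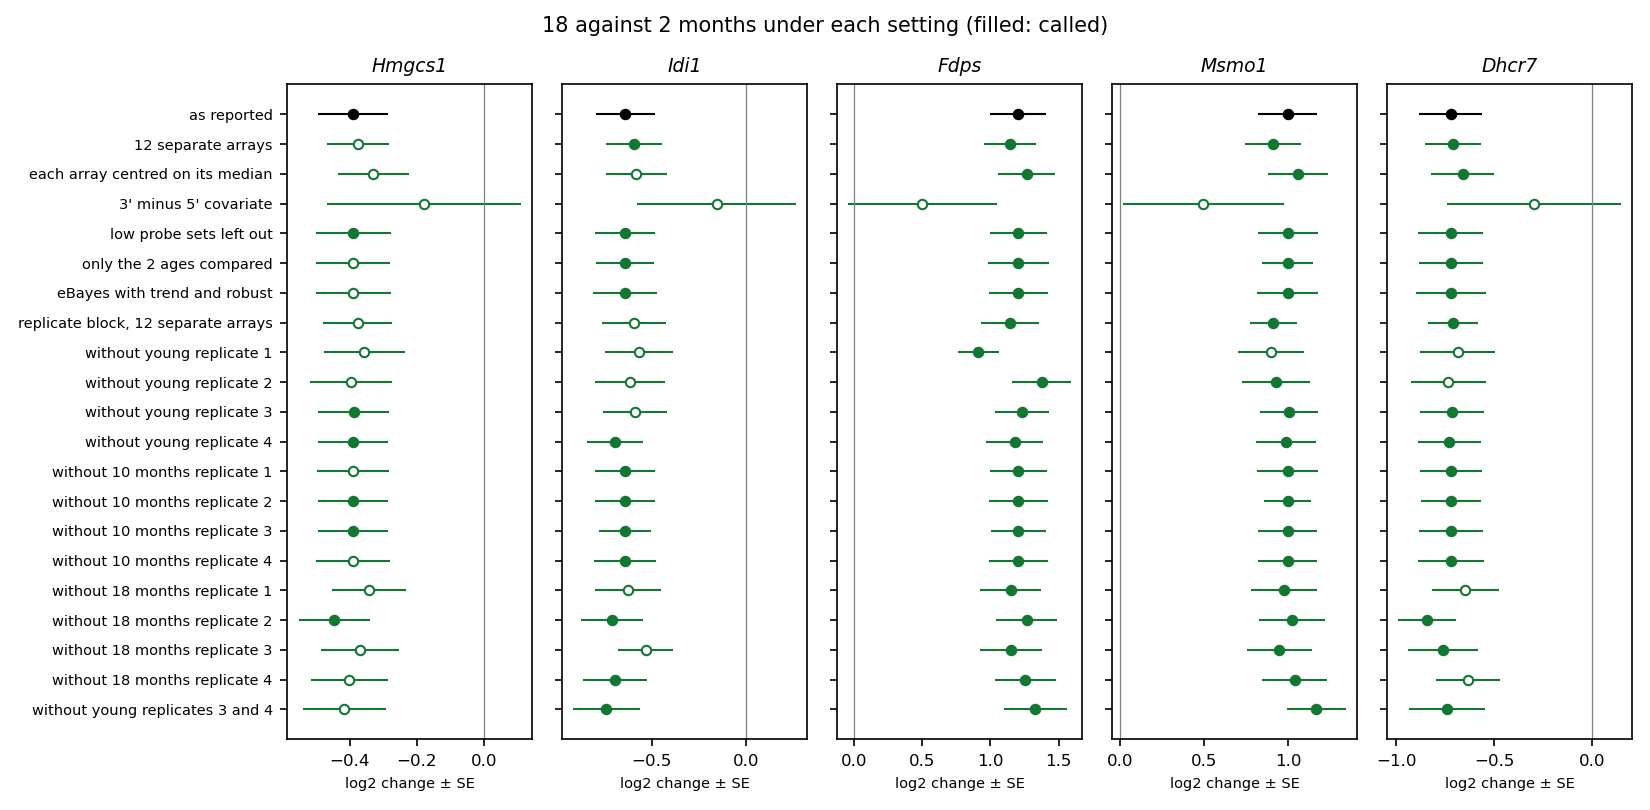
Change on the log2 scale ± SE (x axis, each panel with its own range) of the 5 member probe sets at 18 against 2 months, as reported (black) and under 20 other settings (green, rows). Filled points passed the test under that setting. Fdps passed in 19 of the 20 and Hmgcs1 in 6, and no probe set passed with the 3′ minus 5′ measure as a covariate.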

How the data were processed

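Total RNA of dissected VTA was amplified in the two-cycle assay and hybridized to Affymetrix mouse genome arrays. The authors normalized the arrays with RMA and deposited log2 expression values per probe set, on which all tests here were made. Their processing notes, as submitted, list limma 3.4.5. Values ran from 2.40 to 14.7 and array medians from 6.11 to 6.21. Arrays have no read depth, and their number limits the precision.

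The 64 control probe sets of 45101 were left out. Probe sets were named by the platform annotation, which lists 34945 with 1 gene, 932 with several and 9160 with none. The 3 ages were fitted together in R 4.3.3 with limma 3.58.1 (lmFit, contrasts.fit, eBayes), with a mean per age and Benjamini-Hochberg adjustment over 45037 probe sets. Calls needed an adjusted p under 0.05 and a change above 1.3-fold, as in the study, with no fold threshold for the contrast of intervals. Low probe sets had every age mean under 4.48, the lowest lower quartile of an array. All member probe sets are named, with listed genes called in any comparison and the 5 genes most like the members. Members and lists were chosen with earlier results of these data known. The code was tested on simulated data.

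Alternatives were 12 separate arrays, centring each array on its median, the 3′ minus 5′ covariate, leaving out low probe sets, only the ages compared, trended and robust eBayes, a replicate block, leaving out replicates, and gene means.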

Additional observations from a re-analysis of the deposited data

Results flagged for a closer look

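In 3 of 46 groups of 4 member values, 1 sample stood apart from the other 3 by more than Dixon's 95% critical value, where chance flags about 1 group in 20. At 10 months array 3 was high for Idi1 1451122_at, at 11.78 against 11.40 in the nearest array. The same array was low for Lss 1426913_at, at 8.31 against 8.73 in the nearest. Over all probe sets it also differed most from the others of its age, with correlations of 0.967 to 0.984. At 10 months array 2 was low for Msmo1 1423078_a_at, at 11.11 against 11.65 in the nearest. None of the 5 member calls at 18 against 2 months was lost when either array was left out. Leaving out 10-month array 3 gave 8 called member probe sets at 18 against 2 months in place of 5. Calls over all probe sets also increased in that fit, to 11.8% from 7.46%.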

How the results depend on the processing

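At 18 against 2 months the 5 called member probe sets became 3 with each array centred on its median (Fdps, Msmo1 and Dhcr7), 3 with a replicate block on 12 arrays (the same 3), 0 with the 3′ minus 5′ covariate and 1 to 8 when replicates were left out. Kept as 12 separate arrays, 7 were called, of which 4 were shared with the 5. The shares called over all probe sets were 9.9% with separate arrays, 7.67% with centring and 5.66% with the block, against 7.46% as reported. The 4 called genes became 0 with the covariate, 3 as means of their probe sets (1122 of all 15900 genes) and 1 to 5 without replicates. Over all probe sets the 3359 calls became 0 with the covariate and 423 to 5326 without replicates. Centring gave 2528 higher and 927 lower, against 2047 and 1312.

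At 10 against 2 months the 1 called member became 0 with the covariate, the replicate block or only the 2 ages compared, and 0 to 4 without replicates. The 613 calls over all probe sets became 977 with 12 separate arrays, 217 with trended and robust eBayes, 3 with the replicate block, 0 with the covariate or only the 2 ages, and 1 to 1276 without replicates. Centring gave 531 higher and 161 lower, against 377 and 236. At 18 against 10 months the 1 call over all probe sets became 0 with the covariate, the block or only the 2 ages, and 0 to 2 without replicates. Members stayed at 0 in that comparison and in the contrast of intervals under every setting run.

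Same-numbered arrays of different ages were not the most alike, which does not show whether they were processed together. Correlations of deviations between same-numbered arrays ran from −0.611 to 0.431 over 12 pairs, against −0.692 to 0.768 over 36 other pairs, and 0 of 12 arrays matched best with their own number. No called change reversed in sign, though with the covariate the errors left the signs undetermined. Among 1238 uncalled values, 53 changed sign. Beyond the settings' own construction, the causes were not tested.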
